A study of Mus musculus with 18 samples.

Results

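The interferon-stimulated genes described here are a list of 41 genes chosen by name, out of 32285 genes in the deposited gene expression matrices. Of these, 40 were measured, and Mx1 was not analysed here. Droplet-based single-cell RNA counts came from CD45-enriched cells of 3 mouse tissues: the whole colon, with lamina propria and epithelium combined, and the lamina propria and the epithelium of the small bowel, called lamina propria and epithelium below. By St8sia6 genotype the animals were knockouts (KO), heterozygotes (het) and wild type (WT), and the product of this gene transfers sialic acid onto sugar chains of glycoproteins and glycolipids. No treatment or further allele is named, and age, sex and strain are not given in the sources used here. Per the labels, 1 KO mouse, 1 het mouse and 2 WT mice were used, the procedure was run 3 times, and cells of the 3 genotypes carried different hashtag antibodies and were pooled by tissue before capture. Read so, each WT value of a library mixes 2 mice and each KO or het value comes from 1. Whether each run used new mice is not stated, so the 3 libraries may repeat the same animals, and p-values then measure only the spread between runs. Cells were grouped by the number that ends their barcode. The genotype of each such group was taken from the hashtag with the highest median in it. The 3 libraries per tissue were taken from the order of these endings, which cannot be matched to the replicate numbers of the labels.

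Cells were sorted into 7 gates by their own transcripts. A cell entered a gate when it carried at least 1 molecule (UMI, a count of 1 captured RNA molecule) of exactly 1 of Cd3e (T cells), Ms4a1 (B cells), Mzb1 (plasma cells), C1qa (macrophages) and Epcam (epithelial cells). Cd3e cells were split by Cd4, Cd8b1 and Trdc into CD4 T, CD8b T and gamma-delta T gates. The gates held 34.5% of 21286 colon cells, 41.6% of 21347 lamina propria cells and 50.3% of 16705 epithelium cells. Levels are in CPM, the UMIs of a gene or of the summed list per 1000000 UMIs of the same gate and library. Each UMI counts 1 molecule, so levels of different genes do not scale with transcript length. Errors are SDs over 3 libraries. Differences were tested with edgeR on UMI counts summed per gate, and a gene was "called" when its Benjamini-Hochberg adjusted p over all genes tested was under 0.05.

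Summed counts per genotype and library ranged from 10988933 to 30418604 UMIs in the colon, from 12257992 to 23884067 in the lamina propria and from 6316359 to 16723129 in the epithelium. The St8sia6 transcript was present in every KO library, at 7.33 to 9.89 CPM in the colon against 12.4 to 19.0 CPM in WT, at 30.7 to 38.0 against 52.0 to 67.4 CPM in the lamina propria, and at 1.1 to 4.77 against 1.85 to 4.97 CPM in the epithelium. Which stretch of the gene is deleted is not given in the sources used here, so the counts do not check the labels. The cells assigned to WT in lamina propria library 3 stood apart: the WT hashtag was the highest in 55.5% of them, and their median was 1420 UMIs. Among cells assigned to WT in epithelium libraries 1 and 2 the WT hashtag was the highest in 84.4% and 72.9%. In every other group of 1 genotype and library the assigned hashtag was the highest in at least 95.6% of cells. Cells of different libraries of 1 tissue shared 197, 190 and 139 barcodes in colon, lamina propria and epithelium, and the genotypes of 1 library shared 0. In lamina propria gates other than Mzb1, free plasma cell RNA was visible as Igha at 4670 to 18304 CPM, against 248 to 503 CPM in the colon and 13.4 to 45.4 CPM in the epithelium.

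Interferons are secreted proteins that warn tissue of infection. Type I (alpha and beta) and type III (lambda) interferons signal through JAK kinases to a complex that includes STAT2 and IRF9 and binds the interferon-stimulated response element (ISRE), while genes induced by type II interferon (gamma) are known for the gamma-activated site (GAS). The induced genes include effectors against viral RNA and budding virus, sensors and transcription factors that amplify the response, inhibitors that end it, and GTPases that attack vacuoles holding pathogens. In the gut, epithelial cells are known as the main responders to type III interferon and keep a low steady level of such genes that depends on the microbiota.

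Promoter windows of 300 bases (250 before to 50 after the start of transcription) were matched by symbol in RefSeq for 32 of the 40 genes, on build GRCm38.p6. The ISRE core was searched as GAAA repeated after NN (any 2 bases) and the GAS core as TTCNNNGAA, where N is any base, on both strands. An ISRE match was present in 18 of 32 genes (56.2%), against 3.99% of all 27025 genes with a window. A GAS match was present in 8 of 32 (25%), against 9.55% of all. 5 genes held both, 11 held neither, and in 1 gene, Bst2, a GAS match overlapped an ISRE match. A match describes letters in the window and is not a measured binding site. The 8 sequences below are the 200 bases before the start, written 5′ to 3′ on the strand of the gene with ISRE matches in capitals. They belong to genes named in the results on cell types and tissues. Of the members called between genotypes, only Bst2 is among them. In Irf7 and Ifi47 the ISRE letters are not in the window.
Isg15 (chr4:156200819-156201018, minus strand): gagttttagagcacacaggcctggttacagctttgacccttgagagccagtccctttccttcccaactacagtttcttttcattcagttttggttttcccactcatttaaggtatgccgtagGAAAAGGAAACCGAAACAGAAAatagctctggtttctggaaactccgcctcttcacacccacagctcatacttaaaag
Ifit3 (chr19:34583329-34583528, plus strand): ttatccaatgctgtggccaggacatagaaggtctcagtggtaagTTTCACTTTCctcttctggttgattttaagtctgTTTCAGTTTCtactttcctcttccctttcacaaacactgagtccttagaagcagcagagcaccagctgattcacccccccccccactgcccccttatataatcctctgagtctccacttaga
Bst2 (chr8:71537473-71537672, minus strand): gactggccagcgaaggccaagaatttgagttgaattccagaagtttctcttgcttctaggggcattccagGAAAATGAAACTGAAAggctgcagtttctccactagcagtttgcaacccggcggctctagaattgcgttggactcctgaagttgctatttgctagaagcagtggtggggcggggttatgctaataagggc
Oas1a (chr5:120907526-120907725, minus strand): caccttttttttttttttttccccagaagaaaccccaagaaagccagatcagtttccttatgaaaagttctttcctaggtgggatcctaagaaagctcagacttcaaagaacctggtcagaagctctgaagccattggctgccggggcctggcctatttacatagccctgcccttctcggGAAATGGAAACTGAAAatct
Gbp2 (chr3:142620463-142620662, plus strand): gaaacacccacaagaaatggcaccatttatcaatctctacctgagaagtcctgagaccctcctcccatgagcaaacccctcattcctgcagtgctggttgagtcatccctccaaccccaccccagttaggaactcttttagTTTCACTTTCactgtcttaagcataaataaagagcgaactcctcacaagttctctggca
Igtp (chr11:58199356-58199555, plus strand): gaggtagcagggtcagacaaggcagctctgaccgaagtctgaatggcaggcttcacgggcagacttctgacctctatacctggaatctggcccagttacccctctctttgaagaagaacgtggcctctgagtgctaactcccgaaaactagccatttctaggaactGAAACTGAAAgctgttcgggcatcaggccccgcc
Irf7 (chr7:141266425-141266624, minus strand): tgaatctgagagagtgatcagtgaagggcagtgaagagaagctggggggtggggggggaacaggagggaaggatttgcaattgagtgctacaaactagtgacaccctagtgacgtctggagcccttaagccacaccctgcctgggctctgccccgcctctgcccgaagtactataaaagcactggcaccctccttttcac
Ifi47 (chr11:49076387-49076586, plus strand): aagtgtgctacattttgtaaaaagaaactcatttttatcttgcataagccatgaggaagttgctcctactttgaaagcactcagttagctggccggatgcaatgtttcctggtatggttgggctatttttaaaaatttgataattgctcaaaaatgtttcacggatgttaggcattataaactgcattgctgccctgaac

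Isg15 encodes a ubiquitin-like protein that is attached to other proteins during the response, and its window holds 3 matches. Ifit3 belongs to a family of binders of viral RNA, Bst2 (tetherin) holds budding virus at the cell surface, and Oas1a makes a second messenger on sensing double-stranded RNA. Gbp2 and Igtp encode GTPases of host defence that are known as strong targets of interferon gamma, as is Ifi47. Irf7 is the transcription factor that amplifies the type I response. The positions of these genes (GRCm38.p6) are as follows: the Isg15 gene spans 156199424 to 156200818 on chromosome 4, Bst2 spans 71534255 to 71537472 on chromosome 8, Irf7 spans 141263183 to 141266499 on chromosome 7, and Ifi47 spans 49076587 to 49096987 on chromosome 11. The start used for the Irf7 window lies inside the span of the gene, so the window overlaps it.

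In the colon the summed list was highest in the C1qa gate, at 2300, 3135 and 1896 CPM in the 3 libraries (mean 2444 ± 632 SD, n = 3), and in the CD4 T gate, at 1959, 2503 and 1966 CPM (2143 ± 312). These gates overlapped. The CD8b T gate followed at 1869 ± 62.1 CPM, with its highest library, at 1912 CPM, below every CD4 T library but above the lowest C1qa library. The gamma-delta T (1290 ± 136 CPM), Epcam (1291 ± 153) and B (1284 ± 198) gates could not be ordered, because their libraries overlapped. The Mzb1 gate was lowest at 1055 ± 42.4 CPM. Of its UMIs, 43.9% were immunoglobulin transcripts, which count in the denominator.

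The lamina propria had lower sums. The C1qa gate led at 1610, 1601 and 1612 CPM, above every library of the other gates. The CD4 T (1439 ± 119 CPM), CD8b T (1166 ± 174) and B (1011 ± 311) gates overlapped one another. The gamma-delta T gate (922 ± 76.8) overlapped the CD8b T and B gates and lay below every CD4 T library. The Mzb1 gate measured 721 ± 64.8 CPM with 53.5% immunoglobulin UMIs. The Epcam gate was lowest, at 398, 422 and 448 CPM, below every library of the other gates and under the 1263, 1456 and 1154 CPM of the Epcam gate in the colon.

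In the epithelium the Mzb1 gate held the highest sum of the series, at 2951, 4211 and 2731 CPM, and is described on its own below. The CD8b T (1737 ± 91.1 CPM) and CD4 T (1690 ± 182) gates overlapped, and the gamma-delta T gate (1423 ± 54.1) lay below both. The B (1135 ± 246) and Epcam (969 ± 95.3) gates had the lowest means and overlapped, and the B gate also overlapped the gamma-delta T gate. The C1qa gate held 19 epithelium cells, too few for a sum of at least 10 cells per library.

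**Figure D1:**
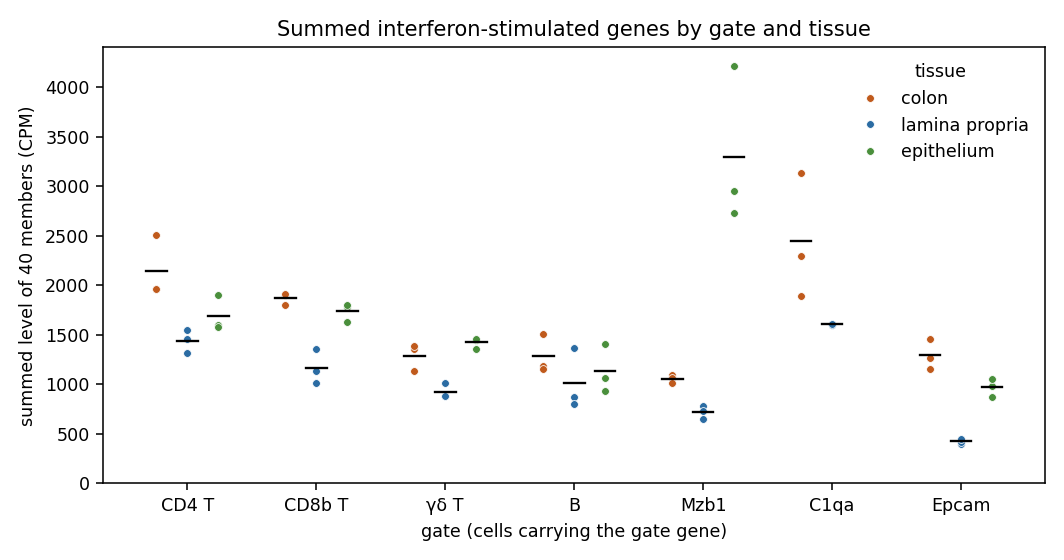
Summed level of the 40 genes in CPM (vertical axis) by gate (horizontal axis) and tissue (colour). Each point is 1 of 3 libraries and each black line the mean; the Mzb1 gate of the epithelium reached 4211 CPM, and the Epcam gate of the lamina propria stayed at or under 448 CPM.

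The leading genes differed by gate. Ifi27l2a, a small mitochondrial protein, made 29.4% of the sum in the colon CD4 T gate (511, 761 and 621 CPM) and 21.0% in the colon B gate. Ifi47 (219 ± 14.8 CPM) and Ifi27l2a (218 CPM) were level at the head of the colon CD8b T gate. Ifi47 led the CD8b T gate of the epithelium (256 ± 35.1) and the gamma-delta T gate of colon and epithelium (201 and 218 CPM). Bst2 led the Mzb1 gate in the colon (328 ± 20.6 CPM), the lamina propria (291 CPM, 40.4% of the sum) and the epithelium (1956 ± 296). Oasl1, an OAS-like inhibitor of Irf7 translation, led the Epcam gate of the epithelium at 117, 172 and 106 CPM. In the colon Epcam gate Irf7 led, at 76.3, 116 and 80.7 CPM. In the Epcam gate of the lamina propria Bst2 led with a mean of 49.8 CPM. The Ifit genes were scarce throughout: Ifit3b averaged 0.999 CPM and Ifit3 4.24 CPM over 60 sums of gate, tissue and library. Ifit3 and Ifit3b are near-identical copies, so reads may be split between them, and the Oasl, Gbp and Slfn families carry a like doubt.

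**Figure D2:**
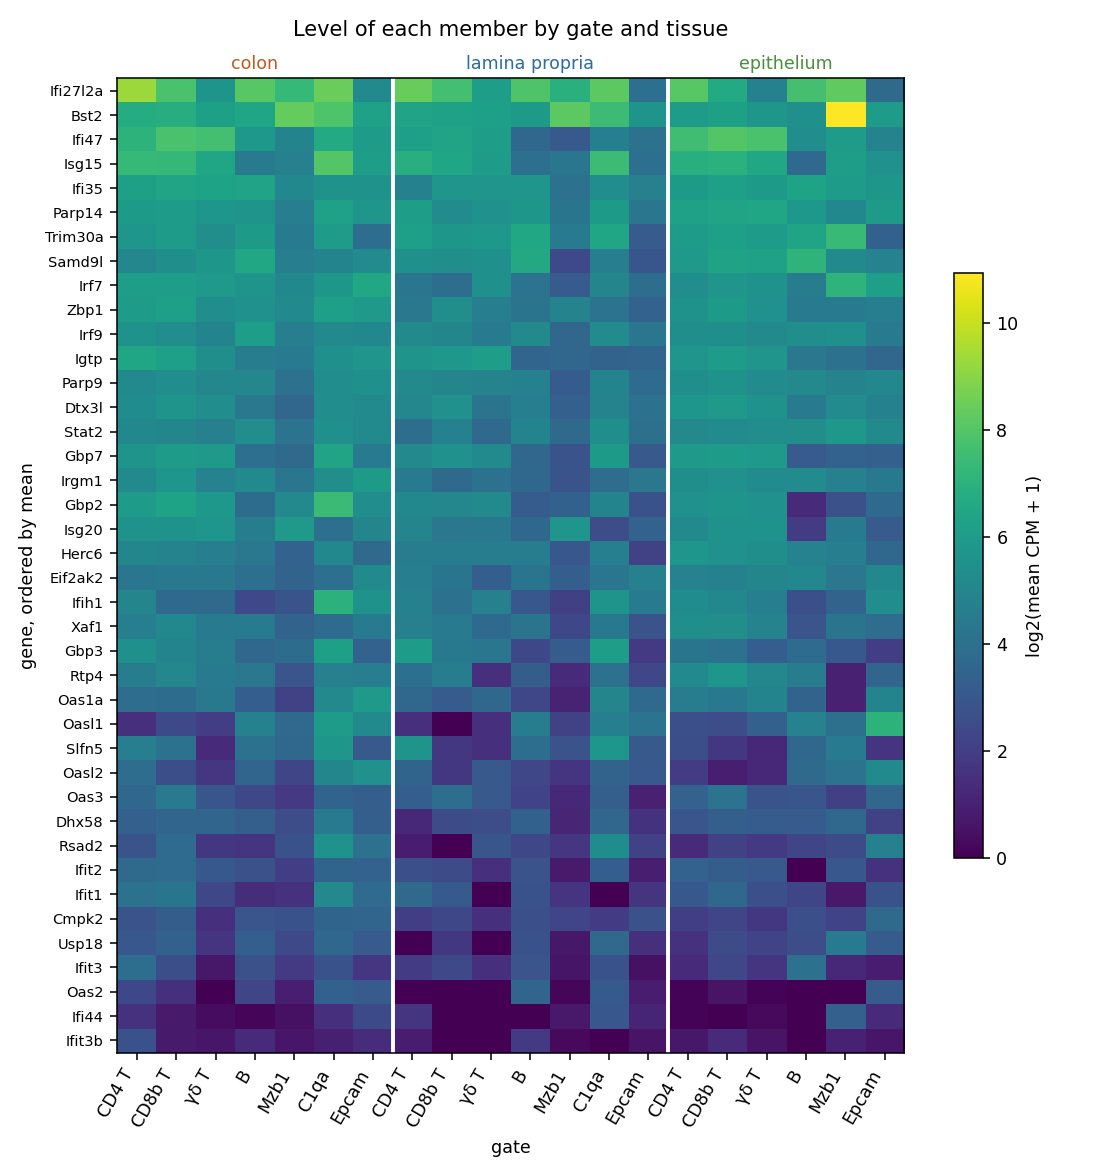
Level of each of the 40 genes (rows, ordered by mean) by gate and tissue (columns), as log2(mean CPM + 1) over 3 libraries. Ifi27l2a and Bst2 head the list, and the Bst2 cell of the epithelium Mzb1 gate, at 1956 CPM, is the brightest.

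Each gate was then compared with the mean of the other gates of its tissue, with the library as a block. The gates were cut on genes outside the list. In the colon 38 genes passed the filter on low counts (not Ifi44 and Ifit3b), in the lamina propria 23, and 39 passed in the epithelium (not Ifit3b). Over all gates, members were called higher in 59 of 266 tests in the colon, where 20.8% of all tests were called higher, in 29 of 161 in the lamina propria (20.7%), and in 66 of 234 tests of the epithelium (21.4%). In the colon and the lamina propria the totals lie near the share of all genes, and gates differed among themselves.

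The C1qa gate of the colon had 19 members called higher, beside 16.9% of all genes called higher, with a median log2 difference of 0.69 over the tested members and -0.16 over all genes. The largest differences were those of Oasl1 (log2 difference 3.17), the RNA sensor Ifih1 (3.04), Rsad2 (viperin, 2.90), Oas2 (2.76), Slfn5 (2.52), Ifit1 (2.27) and the GTPases Gbp2 (2.12) and Gbp3 (2.03). Oas2 was at 0 UMIs in the colon gamma-delta T gate, so its fitted difference depends on the prior count. Isg15 measured 214, 465 and 97.8 CPM there and Ifih1 71.2, 270 and 41.9 CPM. Library 2 was highest for both, and without library 1, 2 or 3 the count was 12, 14 and 14. Isg20, an exonuclease, was lower (-1.40). In the lamina propria the gate had 11 of 23 higher (23% of all genes), with Slfn5 (2.87), Gbp3 (2.52), Isg15 (2.25) and Ifih1 (1.91) leading, and Igtp (-1.32) and Isg20 (-1.86) lower.

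The CD8b T gate of the epithelium had 19 of 39 members higher, beside 20.7% of all genes, led by Rtp4, a receptor transporter protein (2.07), Gbp2 (1.95), Ifit2 (1.83), Ifit1 (1.81) and Gbp7 (1.69). Oasl1 (-1.89) and Bst2 (-0.76) were lower. The CD4 T gate there had 14 higher (19.1%), with Ifit2 (2.08), Gbp2 (1.72) and Ifi27l2a (1.71). Ifit2 was at 0 UMIs in the epithelium B gate, so the same limit holds for its differences. Cells of this CD4 T gate also carried the CD8 marker list at 7488 CPM and the CD4 list at 3526 CPM. The CD8 list holds Cd3d, Cd3g, Trac, Cd8a, Nkg7 and Gzmb, and Cd3d, Cd3g and Trac are also in the CD4 list. It is not specific to CD8 cells: in the epithelium it summed to 10509 CPM in gamma-delta T and 9294 CPM in CD8b T. The gamma-delta T gate there had 9 higher (21.7%), with Gbp2 at 1.76 and Ifi27l2a at -2.26. In the colon the CD8b T gate had 10 of 38 higher (16.2%), led by Oas3 (1.62) and Ifi47 (1.29), and the CD4 T gate 7 (15.6%), led by Ifi27l2a (2.04), Ifit3 (1.92) and Slfn5 (1.01). Ifit3 rested on 10.6, 33.1 and 0 CPM in these CD4 T libraries. The colon gamma-delta T gate had 2 higher (17.3%) and 13 lower (16%). In the lamina propria, 7 members were higher in CD4 T (14.5%), 3 in CD8b T (10.8%) and 1, Igtp, in gamma-delta T (10.1%), where 2 were lower (7.08%).

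The B gate had few members higher: 7 of 38 in the colon (24.2% of all genes), 3 of 23 in the lamina propria (17.7%) and 2 of 39 for the epithelium (8.88%). More were lower, with 15 (23.8%), 8 (16.4%) and 10 (9.77%). Samd9l, an antiviral factor that restrains translation, was called higher in the B gate of all 3 tissues, at 1.32, 2.09 and 1.2 on the log2 scale. Isg15 was called lower in all 3, at -2.29, -2.27 and -2.80, and measured 20.9 ± 2.36 CPM in the colon B gate against 159 ± 56.8 CPM in CD4 T. The Mzb1 gate had Bst2 (2.49 in colon, 3.03 in lamina propria) and Isg20 (1.66 and 3.01) among its 3 higher calls in the colon (20.1%) and 4 in the lamina propria (29%), beside 7 (10.4%) and 5 (24.7%) lower.

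The Epcam gate split the list. In the epithelium 11 members were called higher, beside 40.8% of all genes, and 16 lower (25.3%). In the colon 11 were higher (35.5%) and 13 lower (35.4%). Members called higher in both tissues included Oasl1 (1.87 in colon, 4.01 in epithelium), Oasl2 (2.40 and 3.68), Oas1a (2.02 and 1.58), Ifih1 (1.43 and 1.32), Rsad2 (1.11 and 3.54), the kinase Eif2ak2 (0.91 and 0.63), Cmpk2 (0.77 and 1.98) and Irf7 (0.61 and 0.78). Genes of double-stranded RNA sensing did not all lie on that side: Oas3 was called in the epithelium (0.93) and not in the colon (0.10), and the RNA sensor relative Dhx58 was called lower in the epithelium (-1.06) and measured -0.41 in the colon, where it was not called. The lower side held Ifi27l2a (-2.81 and -3.17), Trim30a (-1.92 and -2.83), Gbp3, Gbp7, Bst2 and Ifi47. In the lamina propria 0 of 23 tested members were higher (39.7% of all genes) and 17 were lower (29.7%). Oasl1, Oasl2, Oas1a, Rsad2, Eif2ak2 and Cmpk2 did not pass the low-count filter there. They were not tested, so the count of 0 does not cover them. No member was higher there at an unadjusted p under 0.05 by edgeR, 0 were called higher by DESeq2, and the count was 1 without library 3 and 4 with no filter on low counts.

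The Mzb1 gate of the epithelium was not a uniform plasma cell gate. Of its 153 cells, 108 (70.6%) carried Siglech, a surface lectin known from plasmacytoid dendritic cells, and held 4235, 5019 and 4718 CPM of the summed list in the 3 libraries. The 45 cells without Siglech held 540, 830 and 566 CPM. The 2 sets did not overlap. Bst2 measured 2836 CPM in cells with Siglech and 215 CPM in those without, Irf7 211 and 7.42 CPM, and Ifi27l2a 412 and 119 CPM, over the summed cells of each set. Jchain, the joining chain of secreted antibody, measured 48740 CPM in cells without Siglech and 1362 CPM in those with it. In the colon 11 of 883 Mzb1-gated cells carried Siglech, at 3042 CPM of the list against 1024 CPM in the rest, and in the lamina propria 28 of 6054, at 1822 against 713 CPM. The lamina propria cells with Siglech differed from those of the other tissues in plasma cell transcripts. Their Jchain measured 35776 CPM, against 51537 CPM in the rest of that gate and 362 CPM in colon cells with Siglech. Without Siglech-carrying cells, members called higher in the epithelium Mzb1 gate numbered 3 of 38 (6.58% of all genes), in place of 11 of 39 (17.2%).

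**Figure D3:**
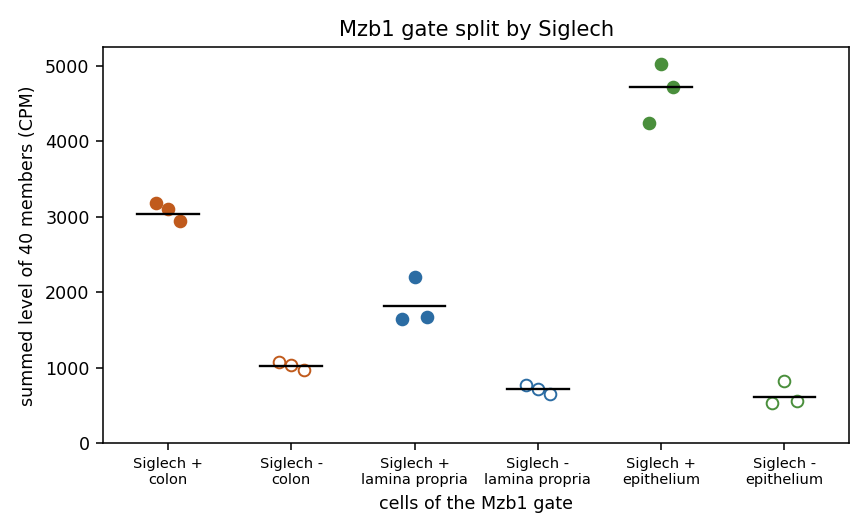
Summed level of the 40 genes in CPM in Mzb1-gated cells with (filled) and without (open) a Siglech UMI, by tissue. Points are libraries and black lines the value over all cells of the set; in the epithelium cells with Siglech lie at 4235 to 5019 CPM and the rest at 540 to 830 CPM, and the colon points with Siglech rest on 2 to 5 cells each.

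The tissues were compared gate by gate on library sums over genotypes, without pairing, since libraries of different tissues cannot be matched. In the Epcam gate nearly the whole list was higher in the colon than in the lamina propria: 36 of the 38 members that passed the filter were called, each of them higher, beside 43.5% of all genes called in either direction. With no filter on low counts 38 of the 40 were called. The median log2 difference was 1.79 over the tested members and -0.03 over all genes. Leaving out 1 library of either tissue left 33 to 35 calls, and leaving out Epcam-gated cells with a Ptprc (CD45) UMI left 36. The summed list was higher in the colon within each genotype, at 1340 ± 135, 1273 ± 276 and 1193 ± 169 CPM for KO, het and WT of the colon, against 510 ± 159, 415 ± 85.9 and 354 ± 50.9 CPM in the lamina propria. Igha measured 248 CPM in the colon Epcam gate and 6892 CPM in that of the lamina propria, and their median depths were 7067 and 3699 UMIs. The epithelial marker list (Krt8, Krt18, Krt19, Cdh1, Vil1 and Cldn7) summed to 9491 CPM in the colon Epcam gate and 5294 CPM in that of the lamina propria. In the same order Klk1 measured 868 and 240 CPM, and Fabp1 0.99 and 144 CPM. The part of free RNA, depth and cell makeup in the difference was not tested.

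Among the regulators, Irf7 measured 76.3, 116 and 80.7 CPM in the colon Epcam gate and 10.3, 15.9 and 17.6 CPM in the lamina propria, a log2 difference of 2.56 ± 0.25 SE (adjusted p = 3.1e-05, edgeR). All colon libraries lay above all lamina propria libraries. Stat2 and Irf9, partners in the complex that binds the ISRE, differed by 1.10 and 0.70, and Usp18, which removes Isg15 and ends receptor signalling, by 1.99 from levels of 0.337 to 3.67 CPM in the lamina propria. Among the effectors, Isg15 measured 67.8, 88.6 and 53.1 CPM in the colon and 15.7, 16.5 and 13.2 CPM in the lamina propria (2.06 ± 0.21 SE, adjusted p = 3.49e-05, edgeR). Oas1a measured 49.3, 64.3 and 57.3 against 10.9, 11.8 and 14.0 CPM (2.11 ± 0.14 SE, adjusted p = 2.97e-06, edgeR). Neither gene overlapped between the tissues. Ifit1 (2.50), Ifit2 (3.26), Oas2 (3.49), Oas3 (3.19), Rsad2 (2.08) and the nucleic acid sensor Zbp1 (2.52) were higher as well. Ifit3 did not pass the filter and measured 1.59, 2.79 and 2.55 against 0.496, 0.337 and 0.367 CPM.

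The GTPases moved in the same direction in the colon. Gbp2 measured 42.2, 47.7 and 31.3 CPM against 4.63, 4.39 and 8.45 CPM in the lamina propria (2.72 ± 0.30 SE, adjusted p = 7.43e-05, edgeR), and Igtp 55.0, 51.7 and 46.9 against 10.8, 12.8 and 8.81 CPM (2.12 ± 0.16 SE, adjusted p = 4.75e-06, edgeR). Irgm1 (1.58), Gbp3 (1.75), Gbp7 (1.45) and Ifi47 (1.86) were also called. The smallest called differences were those of Eif2ak2 (0.35), Irf9 and Ifi35 (0.76). Bst2 and Slfn5 were the 2 tested members not called, and Ifi27l2a, Isg20 and Trim30a were called at 1.15, 1.47 and 0.79.

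The epithelium compared with the lamina propria gave another set of calls in the Epcam gate: 25 members higher and 1 lower of 38, beside 31.2% of all genes, with a median of 1.10 over the tested members. The lamina propria libraries are shared with the comparison above. Oasl1 measured 117, 172 and 106 CPM in the epithelium, 15.9, 18.2 and 16.5 CPM in the lamina propria and 26.4, 44.8 and 33.7 CPM in the colon. The epithelium stood above both other tissues in every library, and the log2 difference from the lamina propria was 2.97 ± 0.24 SE (adjusted p = 2.73e-05, edgeR). Oas3 (3.66), Oas2 (3.58), Rsad2 (2.93), Irf7 (2.31), Oasl2 (2.29), Usp18 (2.21) and Samd9l (2.09) were also called higher. Of the GTPases, Gbp2 (1.10) and Ifi47 (0.80) were called higher, and Igtp, Irgm1, Gbp3 and Gbp7 were not called. Igtp measured 11.5, 8.93 and 12.9 CPM in the epithelium, which overlapped the lamina propria. Slfn5, of the Schlafen family of growth regulators, was lower (-1.69). Most Epcam-gated cells of the epithelium were WT, with 385 to 420 per library against 47 to 67 KO and 42 to 72 het cells. The colon and the epithelium were not tested against each other.

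**Figure D4:**
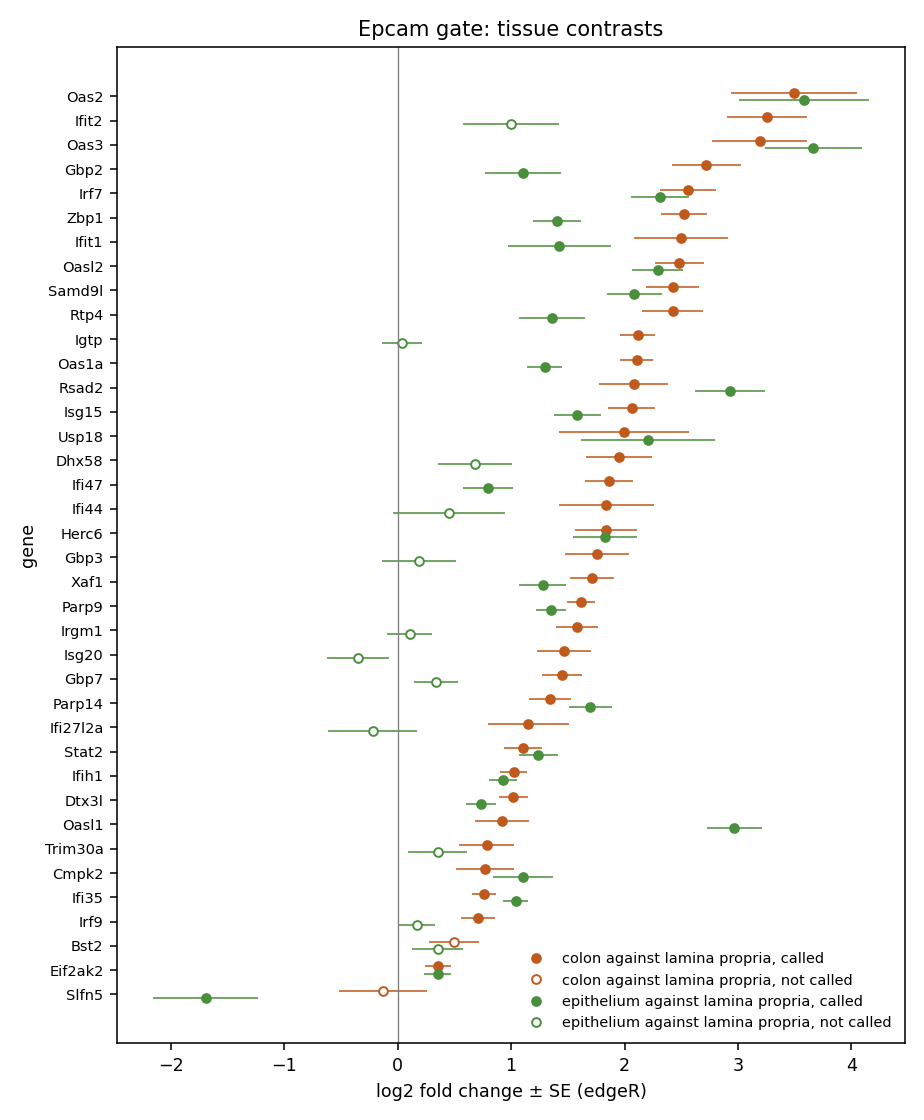
Log2 fold change ± SE (horizontal axis, edgeR) of each tested gene in the Epcam gate (rows), for colon (orange) and epithelium (green) against the lamina propria; filled points were called. Of 38 genes 36 are called in the colon, and in the epithelium Igtp, Irgm1, Gbp3 and Gbp7 lie near 0 and Slfn5 below it.

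Outside the Epcam gate fewer members were called between tissues. Colon against lamina propria gave 73 calls in 189 tests over the 7 gates, all higher, beside 30% of all tests called in either direction. Outside the Epcam gate the shares of all genes called higher are given in brackets. Calls were 15 of 32 in Mzb1 (20.1%), 6 of 30 in CD4 T (8.12%) and 6 of 13 in B (16.7%). They were 4 of 29 in CD8b T (8.59%), 4 of 21 in C1qa (11.9%) and 2 of 26 in gamma-delta T (9.95%). In the gamma-delta T gate the share of members was not above that of all genes. Ifi47 was called higher in the colon in all 7 gates and Irf7 in 5. In the CD8b T gate Ifi47 measured 223, 202 and 231 CPM in the colon, 266, 284 and 217 CPM in the epithelium and 72.5, 73.3 and 105 CPM in the lamina propria. The lamina propria libraries lay below all others. The log2 differences from it were 1.29 ± 0.22 SE (adjusted p = 0.000601, edgeR) in the colon and 1.39 ± 0.21 SE (adjusted p = 0.000169, edgeR) in the epithelium. In the CD4 T gate Irf7 measured 77.6, 65.3 and 62.4 CPM in the colon and 31.0, 12.0 and 12.2 CPM in the lamina propria, and did not overlap. In the C1qa gate Gbp2 measured 145, 178 and 196 CPM against 27.3, 37.8 and 24.6 CPM. Ifit1 measured 31.3, 68.9 and 2.79 CPM in that gate of the colon and was at 0 UMIs in the lamina propria.

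Epithelium against lamina propria gave 63 calls in 168 tests, 56 of them higher, beside 26.9% of all tests. By gate these were 26 in Epcam, 19 of 32 in Mzb1 (47% of all genes), 7 of 30 in CD4 T (25.5%), 5 of 29 in CD8b T (16.3%), 5 of 26 in gamma-delta T (17.3%) and 1 of 13 in B (15.2%). Without the Siglech-carrying cells the Mzb1 gate gave 0 calls in 29 tests, where 4.06% of all genes were called, and the total was 45. Fewer cells then entered the gate. In the CD4 T gate 2 members were lower in the epithelium. Slfn5 measured 6.52, 2.69 and 6.12 CPM there against 38.7, 95.9 and 15.3 CPM in the lamina propria (-3.68 ± 0.55 SE, adjusted p = 0.000216, edgeR), and Gbp3 21.4, 17.9 and 14.9 against 58.1, 62.3 and 73.2 CPM (-2.00 ± 0.28 SE, adjusted p = 0.000125, edgeR). Neither overlapped. In the CD8b T gate Ifi27l2a was lower (-1.13).

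The question set by the design, whether St8sia6 genotype altered expression, was put to the list gate by gate. In the colon and the lamina propria no member was called between genotypes. In the colon KO against WT gave 0 calls in 151 tests (0.108% of all tests called), with 18 at an unadjusted p under 0.05 (11.9%, and 4.83% of all tests) and 0 calls by DESeq2. Het against WT gave 0 in 146 (0.0165%), 10 unadjusted (6.8%, and 4.46% of all) and 0 by DESeq2, and KO against het 0 in 146 (0.047%), 13 unadjusted (8.9%, and 4.79% of all) and 1 by DESeq2. The counts of the small bowel lamina propria were 0 of 67 for KO against WT (0.0328%), with 10 unadjusted (14.9%, and 8.23% of all) and 1 by DESeq2. Het against WT gave 0 of 67 there (0.0146%), with 8 unadjusted (11.9%, and 6.62% of all) and 0 by DESeq2, and KO against het 0 of 68 (0.0509%), with 7 unadjusted (10.3%, and 4.61% of all) and 0 by DESeq2. In these 6 comparisons the unadjusted share of the members was above that of all tests, and members of 1 gate share their libraries. The median log2 difference of KO against WT ran from -0.28 to 0.35 over the colon gates, with 0.13 in the Epcam gate, where 32 of 40 members were above 0 as were 49.7% of all genes. Over the lamina propria gates it ran from -0.40 in CD4 T, with 9 members tested, to 0.72 in B, with 3 tested. In the lamina propria Epcam gate it was 0.38, with 19 of 22 members above 0 as were 50.8% of all genes. The summed list was higher in KO than in WT in 3 of 3 lamina propria libraries in the Epcam (by 0.08 to 0.77 on the log2 scale), C1qa (0.10 to 0.82) and B (0.05 to 1.10) gates, and the largest of these in the C1qa, Epcam and B gates came from library 3, whose WT cells stood apart by hashtag. These sums were not tested. These fits rest on few cells in places: WT sums of the lamina propria CD8b T gate never reached 10 cells.

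In the epithelium 4 of 127 tests were called for KO against WT (3.83% of all tests). All 4 were among 29 members tested in the Epcam gate, where 15% of all genes were called. The same gate held 3 of the 4 calls for het against WT (3.9%). These were again among 29 members, beside 13.6% of all genes in this gate. In neither comparison was the share of members called in this gate above that of all genes. Bst2 measured 160, 160 and 126 CPM in KO, 212, 36.3 and 166 CPM in het, and 35.4, 18.1 and 49.4 CPM in WT. KO lay above WT in every library, and het library 2 lay within the WT range. The log2 difference was 2.06 ± 0.37 SE for KO against WT (adjusted p = 0.00398, edgeR) and 1.83 ± 0.37 SE for het against WT (adjusted p = 0.00858, edgeR). Ifi27l2a measured 25.1, 41.3 and 56.3 CPM in KO, 41.5, 38.4 and 14.0 CPM in het and 7.19, 2.01 and 4.44 CPM in WT, with no overlap of either with WT. Its differences were 2.94 ± 0.49 SE (adjusted p = 0.00266, edgeR) and 2.62 ± 0.51 SE (adjusted p = 0.00685, edgeR). Gbp7 measured 14.5, 15.5 and 24.4 CPM in KO, 18.0, 27.7 and 18.0 CPM in het and 4.26, 7.72 and 5.55 CPM in WT (1.46 ± 0.40 SE, adjusted p = 0.0296, and 1.73 ± 0.39 SE, adjusted p = 0.0144, edgeR). Oasl1 went the other way, at 72.6, 27.5 and 20.7 CPM in KO, 85.9, 226 and 190 CPM in het and 132, 192 and 106 CPM in WT. KO lay below WT in every library (-1.90 ± 0.44 SE, adjusted p = 0.0148, edgeR). The summed list overlapped between KO and WT, with 947 ± 118 CPM for KO, 1221 ± 158 for het and 930 ± 109 for WT. Over the 3 tissues the interaction of KO against WT with tissue called 1 of 161 member tests (0.883% of all tests, and 3.03% in the Epcam gate), for Bst2 (adjusted p = 0.0423, edgeR).

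The makeup of this gate differed by genotype. Cells with a Ptprc UMI made 44.9% to 52.2% of it in KO, 37.3% to 54.2% in het and 10.6% to 15.4% in WT, and cells with a Siglech UMI 6.0% to 6.4%, 5.1% to 9.5% and 0.3% to 1.5%. The epithelial marker list summed to 5436 to 6967 CPM in KO, 5182 to 6984 in het and 7411 to 8243 in WT. When cells with a Ptprc UMI were left out, Bst2 differed by 0.42 ± 0.33 SE (adjusted p = 0.561, edgeR) in KO against WT and by 0.52 ± 0.33 SE (adjusted p = 0.577, edgeR) in het, and Ifi27l2a and Gbp7 no longer passed the filter. Oasl1 kept its call at -2.08 ± 0.36 SE (adjusted p = 0.0089, edgeR). The KO sums behind it were small: before this step they held 47 to 67 cells per library, against 385 to 420 in WT. Median depth also differed, at 3765 to 7536 UMIs in KO and 2414 to 4350 UMIs in WT, and its part was not tested. When only Siglech-carrying cells were left out, Bst2 fell to 0.83 ± 0.24 SE (adjusted p = 0.0439, edgeR) and Ifi27l2a to 2.33 ± 0.68 SE (adjusted p = 0.0439, edgeR). In het against WT they were then not called, at 0.72 (adjusted p = 0.0918, edgeR) and 2.03 (adjusted p = 0.102, edgeR). With genotypes taken from each cell's own hashtags, Bst2 differed by 0.89 (adjusted p = 0.336, edgeR), Ifi27l2a by 1.35 (adjusted p = 0.387) and Oasl1 by -0.99 (adjusted p = 0.63), and none of the 3 was called, while Gbp7 kept its call at 3.06 (adjusted p = 0.0414, edgeR). Without library 2 or 3, Oasl1 was not called (-1.44, adjusted p = 0.135, and -1.76, adjusted p = 0.0887, edgeR). Gbp7 lost its call without each library in turn (1.17 to 1.80, adjusted p = 0.0742 to 0.193, edgeR) and by DESeq2 (1.49, adjusted p = 0.0608). In het against WT, Bst2 was not called without library 1 (1.44, adjusted p = 0.0583, edgeR), Ifi27l2a not without library 2 (2.15, adjusted p = 0.0605, edgeR), and Gbp7 not without each library in turn (1.68 to 1.77, adjusted p = 0.0609 to 0.108, edgeR).

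**Figure D5:**
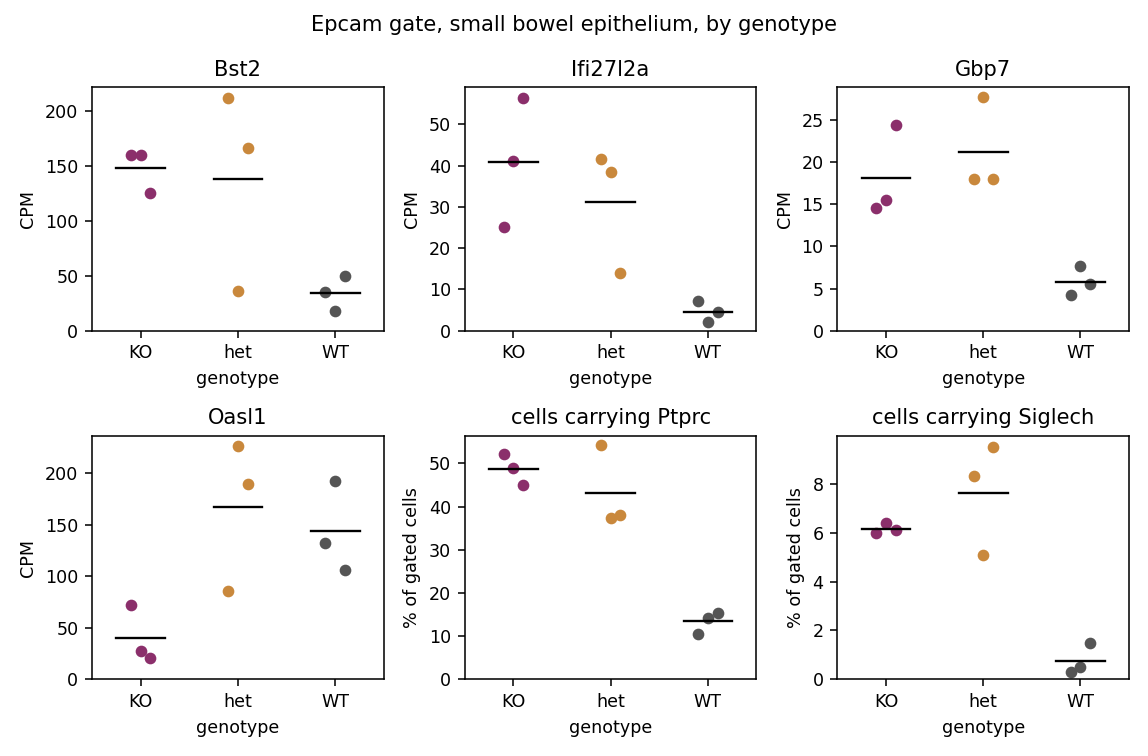
Level in CPM of the 4 genes called between KO and WT in the Epcam gate of the epithelium, and the percent of its cells carrying Ptprc or Siglech, by genotype. Points are 3 libraries and black lines their mean; Bst2, Ifi27l2a and Gbp7 are lowest in WT, as are both shares of cells, and Oasl1 is lowest in KO.

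Ifi27l2a also gave the remaining calls in T cells of the epithelium. In the CD4 T gate it measured 288, 137 and 174 CPM in het and 585, 478 and 337 CPM in WT, and KO ranged from 259 to 367 CPM. Het lay below WT in every library (-1.33 ± 0.18 SE, adjusted p = 0.000183, edgeR), in a gate where 3.34% of all genes were called. Without library 2 the difference was -1.02 (adjusted p = 0.0505, edgeR). Genes of naive and recirculating T cells (Ccr7, Klf2, Lef1 and Igfbp4) summed to 342 to 1421 CPM in the WT libraries of this gate, 119 to 419 CPM in het and 129 to 411 CPM in KO. The CD8 marker list, which shares Cd3d, Cd3g and Trac with the CD4 list, also differed. It summed to 3992 to 5250 CPM in the WT libraries, 6698 to 8279 CPM in het and 6587 to 7340 CPM in KO. WT overlapped neither. The part of both lists in the difference was not tested. In the CD8b T gate Ifi27l2a was the 1 call of KO against het among 127 tests (0.243% of all tests, and 0.114% in this gate), at 95.4, 66.7 and 86.2 CPM in KO and 159, 113 and 106 CPM in het (-0.64 ± 0.12 SE, adjusted p = 0.0349, edgeR). It was not called without library 1 (-0.56, adjusted p = 0.301) or 2 (-0.56, adjusted p = 0.219), nor by DESeq2 (adjusted p = 0.458), with a gate of 2 UMIs (adjusted p = 0.358) or without the library block (adjusted p = 0.638, edgeR).

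The rest of the pathway was read from a list of ligands, receptors, kinases, factors and sensors. Among the ligands only Ifng, made by T cells, was abundant, with 1272, 304 and 3904 UMIs in the gated cells of colon, lamina propria and epithelium. Ifnb1 had 2, 1 and 0 UMIs, Ifna1, Ifna2, Ifna4 and Ifna5 had 0 in every tissue, which allows up to 0.0444, 0.0495 and 0.0590 CPM, and Ifnl2 had 24 UMIs in the colon. Ifng in the CD4 T gate measured 220, 104 and 310 CPM in the colon, 81.4, 110 and 54.9 CPM in the lamina propria and 195, 369 and 198 CPM in the epithelium. In that gate of the epithelium Ifng was called higher in KO against WT (1.15 ± 0.23 SE, adjusted p = 0.0129, edgeR) and in het against WT (1.26 ± 0.23 SE, adjusted p = 0.00304, edgeR). Both KO and het are set against the same WT sums. The naive and CD8 marker lists differed between WT and the other genotypes in this gate, as given above, and their part in the Ifng difference was not tested. The receptor chain of type III interferon, Ifnlr1, measured 6.38 ± 1.04, 6.45 ± 0.51 and 11.0 ± 2.52 CPM in the Epcam gates of colon, lamina propria and epithelium.

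In the Epcam gate 13 of 24 tested pathway genes were called between colon and lamina propria, 10 higher and 3 lower, beside 43.5% of all genes. Socs1, the inhibitor that ends JAK signalling, differed by 1.26 and the RNA sensor Tlr3 by 1.04, while the receptor chain Ifnar1 (-0.56), Jak2 (-0.58) and Irf3 (-0.32) were lower. In the same gate of the epithelium 10 of 24 were called, 9 higher and 1 lower, beside 31.2% of all genes. In the epithelium Mzb1 gate, with its Siglech-carrying cells, Irf8, a factor of dendritic and B cell development, measured 1948, 2666 and 1522 CPM.

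Whether members were detected in the same cells was described for gated cells with at least 1500 UMIs, each thinned to 1500. This left out 479, 340 and 436 Epcam-gated cells of colon, lamina propria and epithelium. Cells with at least 3 of 10 core genes (Isg15, Ifit1, Ifit2, Ifit3, Ifit3b, Rsad2, Usp18, Oasl1, Cmpk2 and Irf7) made 2.50%, 4.04% and 2.95% of the 3 colon Epcam libraries and 3.66%, 2.16% and 2.37% of those of the epithelium. None was found in 1097 Epcam-gated cells of the lamina propria, which allows up to 0.273%. Unthinned, the shares were 19.7%, 17.6% and 2.10%, so depth moves them strongly. In the colon CD4 T gate the share was 1.02%, 3.65% and 0.63%, and library 2 held 7 of the 9 cells. In the CD8b T gate of the epithelium Isg15 was detected in 8 of 12 cells with Ifit3 (66.7%) and in 13.5% of 2657 cells without it. The share was lower in the colon Epcam gate, at 6 of 16 cells with Ifit3 (37.5%) and 7.7% of 2712 without it. The colon B gate had 4 of 17 (23.5%) and 2.1% of 1688, and the epithelium Epcam gate 0 of 2 and 6.2% of 1092. Cells with Ifit3 were few in every gate.

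Across the 60 sums, members followed the rest of the list to different degrees. On the log scale Pearson's r with the sum of the other members was highest for Herc6 (0.70), Trim30a (0.66) and Irf7 (0.61), and near 0 for Bst2 (0.04), Oasl1 (-0.06), Cmpk2 (-0.02) and Eif2ak2 (-0.03). Outside the list, the genes most like the summed list among 6861 compared were H2-T23, a non-classical MHC class I gene (r = 0.80), Gnai2 (0.77) and Cd47 (0.77). These are descriptions: the sums share libraries, gates and depth.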

How the data were processed

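The data are 18 libraries of a CD45-enriched droplet experiment, 9 of gene expression and 9 of hashtag antibodies, with 5′ chemistry. The deposited matrices hold raw UMI counts per gene and barcode, which the authors made with Cell Ranger on mm10, and Seurat is also named, per the submitters' processing notes, with versions not given in the sources used here. Cells with 200 to 8000 genes, 300 to 50000 UMIs and under 20% mitochondrial UMIs were kept. The members and lists were chosen with earlier results of these data known.

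UMI counts were summed per gate, tissue, library and genotype, for sums of at least 10 cells. The tests used R 4.3.3 and edgeR 4.0.16 (TMM scaling, low-count filter by filterByExpr, quasi-likelihood test, Benjamini-Hochberg adjustment over all genes of a fit), with the library as a block for genotype and gate comparisons and without it between tissues. The 3 genotypes of a library share an experiment, which is where the pairing comes from. DESeq2 1.42.0 was an alternative. Scripts were tested on simulated counts. Genes named in the text are members of the list, with single values for those called or leading a gate, and pathway genes from a fixed list. No doublet caller was run: cells carrying more than 1 gate gene were left out of the gates, which also removes cells with free RNA of another type. Counting intervals cover counting error only. Mice within a library are not separate samples, so p-values measure the spread between 3 runs.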

Additional observations from a re-analysis of the deposited data

Results flagged for a closer look

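The KO against WT difference of Bst2 in the Epcam gate was called as different between tissues. The test was an interaction of genotype with tissue in edgeR's quasi-likelihood model (adjusted p = 0.0423). Bst2 was the 1 member called among 161 tests in 7 gates, with 24 at an unadjusted p under 0.05, and 0.883% of all tests were called. In the Epcam gate it was 1 of 37 members, beside 3.03% of all genes. Neither share of members called was above that of all tests. The difference was 2.06 on the log2 scale in the epithelium, where KO lay above WT in 3 of 3 libraries, 0.01 ± 0.17 SE in the colon (adjusted p = 1, edgeR) and 0.49 ± 0.34 SE in the lamina propria (adjusted p = 0.803, edgeR). Cells with a Ptprc or a Siglech UMI were also more frequent in KO in that gate of the epithelium. Without Siglech-carrying cells the adjusted p was 0.414, without Ptprc-carrying cells 0.867, with genotypes from each cell's hashtags 0.252 and without the library block 0.0536 (edgeR).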

How the results depend on the processing

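Leaving out Siglech-carrying cells, or Ptprc-carrying cells from the Epcam gate, was chosen after seeing the data. The counts between tissues stayed within 1.5 times under every alternative run, with 61 to 68 (from 73) and 50 to 62 (from 63) members called when 1 library was left out. Members called higher in a gate numbered 41 to 45 in the colon (from 59), 20 to 30 in the lamina propria (from 29) and 59 to 68 in the epithelium (from 66) when 1 library was left out. With no filter on low counts the lamina propria count was 44. The same setting gave 12 for KO against WT (from 4), 11 for het against WT (from 4) and 4 for KO against het (from 1) in the epithelium, 2 for KO against WT and 1 for KO against het in the lamina propria (from 0), and 3 for KO against het and 4 for het against WT in the colon (from 0). DESeq2 gave 1 for KO against WT in the lamina propria and 1 for KO against het in the colon. In the epithelium, hashtag-based genotypes gave 2 for KO against WT and 2 for het against WT, leaving out Ptprc-carrying cells gave 1, 1 and, for KO against het, 2, leaving out Siglech-carrying cells gave 2 for het against WT, and a gate of 2 UMIs gave 0 for KO against het. When 1 library was left out the epithelium counts were 3 to 4 for KO against WT, 1 to 4 for het against WT and 0 to 2 for KO against het, and in the colon 0 to 1 for KO against het. The interaction with tissue had 0 calls (from 1) with hashtag-based genotypes and 0 without Ptprc-carrying cells. Without the replicate block KO against het in the epithelium gave 0 calls in place of 1, the Bst2 interaction had an adjusted p of 0.0536 (edgeR), and the counts of members higher in a gate were 56, 29 and 65 in colon, lamina propria and epithelium. Among members called in a genotype comparison that still passed the filter, none changed sign under the alternatives run. Signs of the other named genes were not compared across the alternatives. The cause of these changes was not tested. Depth limits the scarce genes: Ifit3b was at 0 in 31 of 60 sums and Ifi44 in 28.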

Other observations

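Cells outside the gates also carried the list. Cells with none of the 5 gate genes held 2007, 1857 and 2008 CPM in the 3 colon libraries, 1293, 1371 and 1185 CPM in the lamina propria and 1626, 1585 and 1807 CPM in the epithelium. They made 8.0%, 24.2% and 6.4% of cells. In all 3 tissues each library lay above the gated cells of the same library, at 1284, 1502 and 1209 CPM in the colon, 701, 718 and 667 CPM in the lamina propria and 1483, 1568 and 1374 CPM in the epithelium. Their median depth was 2561, 1551 and 1141 UMIs in colon, lamina propria and epithelium, and the cell types among them were not analysed here. The gated value depends on the mix of gates. In the lamina propria 6054 of 8890 gated cells were in the Mzb1 gate, where 53.5% of UMIs were immunoglobulin. The C1qa gate there lay above the ungated cells in every library, and the means of the gates other than C1qa and CD4 T lay below them. Cells with 2 or more gate genes held 1216 ± 102, 743 ± 21.5 and 1503 ± 83.3 CPM (SD, n = 3).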
